A study of Mus musculus with 14 samples.

Results

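The genotype by drug interaction compares, gene by gene, what the drug TAK-418 did in Kmt2d mutant mice with what it did in wild types. It is the log2 difference between TAK-418 and vehicle in mutants minus the same difference in wild types, so a positive value means that the drug shifted a gene further upwards, or less far downwards, in mutants. All 14 of the 14 RNA libraries of the series entered it, grouped by their labels. They came from the hippocampus of C57BL6 mice aged 30 days, of genotype KMT2D+/+ (wild type) or KMT2D+/bGeo (mutant, with 1 allele of Kmt2d disrupted by a beta-geo cassette). TAK-418, which inhibits LSD1, was given by gavage at 1 mg/kg/day in methylcellulose for 2 weeks from 2 weeks of age, and the vehicle groups received methylcellulose alone. Vehicle was given to 3 wild types and 3 mutants and TAK-418 to 5 wild types and 3 mutants, counted in libraries, although the design text gives 3 to 4 mice per group. The mutation is carried by every cell and the drug was given to the whole animal, and the labels do not say that each library is a separate mouse. P-values therefore measure the spread between these libraries. Replicate numbers only tell the libraries of a group apart.

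KMT2D is a methyltransferase that adds methyl groups to lysine 4 of histone H3, mostly at enhancers, and loss of 1 copy of the gene causes Kabuki syndrome in people. LSD1, encoded by Kdm1a, removes mono- and dimethyl groups from the same lysine as part of the CoREST complex. A writer that is short and an eraser that is inhibited therefore act on the same mark, and the interaction asks whether the drug altered RNA levels in a different way when the writer was short. In the hippocampus LSD1 and KMT2D are both known for roles in neurogenesis in the dentate gyrus and in neuronal gene control.

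The libraries held 33819 to 48428 assembled transcripts. Relative depth, read from the spacing of the abundance values, was 168 M fragments for replicate 1 of the treated wild types and 35.1 to 60.0 M for the other 13 libraries. The share of abundance that fell on annotated genes was 92.0% to 95.9% in 12 libraries, 59.2% in mutant vehicle replicate 1 and 67.1% in mutant TAK-418 replicate 2. Single-exon transcripts numbered 2217 to 3862 in 4 libraries (wild-type vehicle replicate 3 and wild-type TAK-418 replicates 2, 4 and 5) and 5537 to 7580 in the other 10, which include all 6 mutant libraries. The labels name 2 library kits for every library without saying which was used, so the split can only be described. Xist, the RNA of the inactive X chromosome, was listed in 2 of 3 vehicle and 2 of 5 treated wild types and in 1 of 3 vehicle and 1 of 3 treated mutants.

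Among genes measured in every library, none passed the test for a different response to TAK-418 in the genotypes. Of 16568 genes tested with limma, 1 passed a Benjamini-Hochberg adjusted p of 0.05 for the interaction, a background of 0.00604%. That gene, Pcdhb13, was listed in the 3 mutant TAK-418 libraries alone and entered the test only through them, so its call is given below as a listing and not as a measured response. The next smallest adjusted p was 0.0885. At an unadjusted p under 0.05 there were 735 genes (4.44%), 354 with a positive interaction (2.14%) and 381 with a negative interaction (2.3%). The share of all genes with a positive value was 51.2%, the median 0.0046 and the 5th and 95th percentiles -0.49 and 0.56 on the log2 scale. The median standard error of the interaction was 0.15 for the 13273 genes listed in every library, which is the error of a single gene and not that of a list's median.

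For the drug alone 1 gene passed the adjusted threshold in each genotype, again a gene listed in the 3 libraries of 1 group only (Pcdhb13 in mutants and Tlnrd1 in wild types). There were 728 genes at an unadjusted p under 0.05 in mutants and 1398 in wild types. In mutants 415 of these were higher with the drug (2.5%) and 313 lower (1.89%), and in wild types 855 were higher (5.16%) and 543 lower (3.28%). Wild types had 5 treated libraries against 3 in mutants, so the counts differ in precision as well. The drug effects of the genotypes rest on different libraries and had a Pearson r of 0.146 and a Spearman rho of 0.152 across the 16568 genes, which are not independent replicates. They had opposite signs in 45.1% of genes. Of the 735 genes with an unadjusted interaction p under 0.05, 643 had opposite signs, a share that the choice by difference itself favours, and in 407 the larger shift was in wild types. At an unadjusted p under 0.05 in both genotypes there were 105 genes, 82 of them moving the same way.

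**Figure D1:**
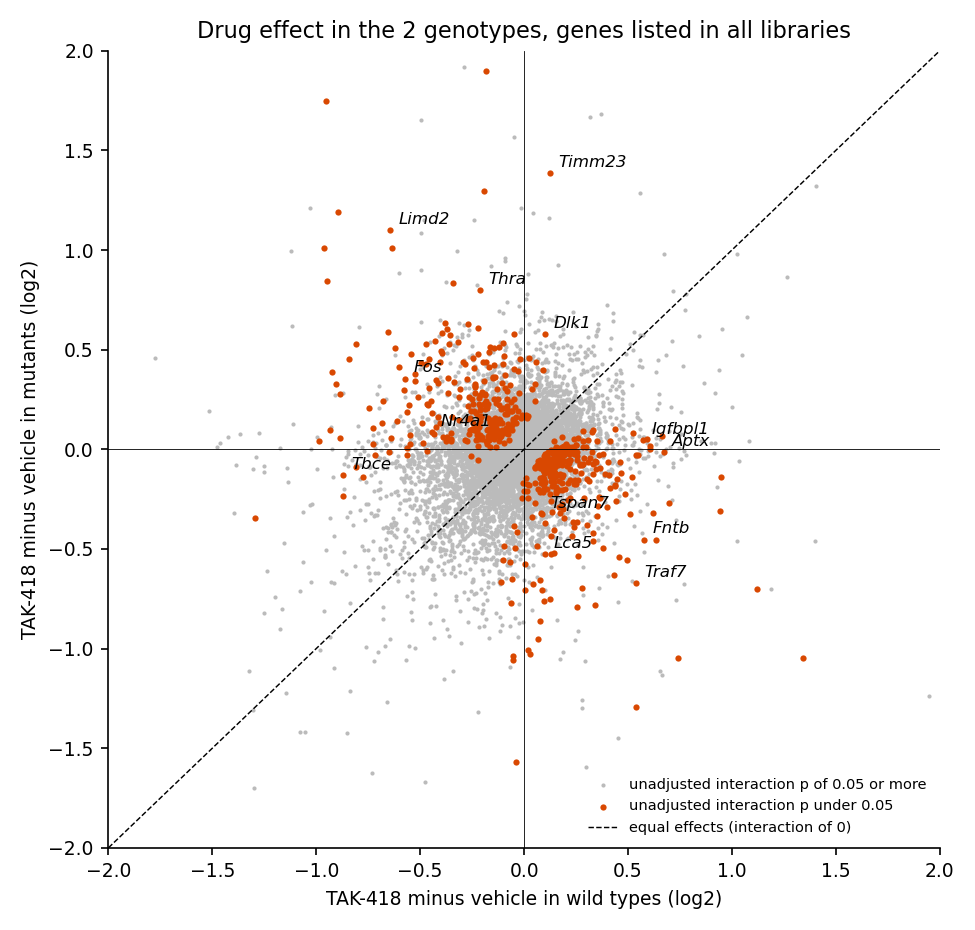
Each point is 1 of the 13273 genes listed in all 14 libraries, with the log2 difference between TAK-418 and vehicle in wild types on the x axis and in mutants on the y axis. The 576 genes with an unadjusted interaction p under 0.05 (orange) lie away from the dashed line of equal effects, mostly in the upper left and lower right. 13 genes lie outside the axes.

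For the genes at the centre of the design the interaction was smaller than the spread between libraries. Kmt2d, on chromosome 15 of GRCm38 at 98831669 to 98871204 on the minus strand, had scaled abundances of 13.98, 14.23 and 13.77 in wild-type vehicle and 10.62, 10.75 and 14.39 in mutant vehicle libraries. With TAK-418 it was at 13.79, 17.99, 12.51, 14.41 and 17.39 in wild types and at 14.57, 13.3 and 9.345 in mutants, so all 4 groups overlapped. Its interaction was -0.06 on the log2 scale with an exact two-sided permutation p of 0.824 over 1120 arrangements (0.903 adjusted over the 2 genes). Kdm1a, on chromosome 4 at 136550540 to 136602723, was at 32.2 to 34.44 in wild-type vehicle, 29.9 to 34.89 in mutant vehicle, 33.21 to 35.78 in wild-type TAK-418 and 33.92 to 34.17 in mutant TAK-418 libraries. Its interaction was 0.01 with an exact permutation p of 0.903, also 0.903 adjusted.

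Pcdhb13, the 1 gene past the adjusted threshold, encodes a clustered protocadherin that serves as a cell-surface label of single neurons and lies on chromosome 18 at 37442500 to 37446209. It was listed at 2.278, 1.703 and 1.524 in the 3 mutant TAK-418 libraries and at 0 in the other 11. The interaction of 1.59 ± 0.14 (SE; limma adjusted p 0.00192) passed the threshold on the log2(value + 0.9) scale. It depends on the added 0.9 and is no fold change, because a listing at 0 means that no transcript was assembled there. With multi-exon transcripts alone it was not tested, nor without any 1 of the mutant TAK-418 libraries, since it was then listed in too few. Without mutant TAK-418 replicate 3 no gene at all was called, and without the 4 libraries with few single-exon transcripts its adjusted p was 0.0839. The 1 gene called for the drug in wild types was Tlnrd1, listed at 0.4356, 0.4956 and 0.5479 in wild-type vehicle libraries and at 0 in the other 11. Each of these genes met the minimum of 3 listed libraries only through the group where it was listed, and the other groups have no spread at all, so neither call is support for a response to the drug.

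Over the whole protocadherin family, 43 of 56 members were tested. The interaction was negative in most, with 16 positive and a median of -0.06 against 0.0046 for all genes. At an unadjusted p under 0.05 there were 2 members with a positive and 3 with a negative value. The negative end held Pcdhga7, at 5.022, 5.904 and 5.122 in wild-type vehicle, 6.971 to 9.32 in wild-type TAK-418, 8.424, 6.809 and 6.648 in mutant vehicle and 7.049, 5.672 and 6.212 in mutant TAK-418 libraries. Treated wild types all lay above vehicle wild types, and the mutant groups overlapped (interaction -0.62 ± 0.16, unadjusted p 0.00243, limma adjusted p 0.875). Genes of the alpha and of the gamma cluster, to which Pcdhga7 belongs, share exons within their cluster. The sources used here do not say how reads on them were split, so single members of these clusters are uncertain.

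Among genes listed in every library with a mean of at least 5, the 10 with the highest moderated statistic, which weighs the interaction by its error, came from several functions. None passed the adjusted threshold. Thra encodes the thyroid hormone receptor alpha. It was at 283.1, 279.4 and 297.4 in mutant vehicle and at 421.2, 541.7 and 544.5 in mutant TAK-418 libraries, against 333.2 to 515.5 in wild-type vehicle and 333.2 to 435.5 in wild-type TAK-418 libraries. The mutant groups did not overlap and the wild-type groups did (interaction 1.01 ± 0.20, limma adjusted p 0.619). The authors' deposited tables, made from the same libraries, gave -0.08 for the same difference of Thra, and the reason for this gap was not tested. Timm23, part of the channel that carries proteins across the inner mitochondrial membrane, was at 60.42, 64.9 and 65.56 in treated mutants and at 21.5 to 25.33 in all other libraries but wild-type TAK-418 replicate 1, where it was at 44.31. Its interaction was 1.26 ± 0.29 (limma adjusted p 0.797), and 1.45 with an adjusted p of 1.9e-05 without that replicate. Limd2, which encodes a small LIM-domain protein, was at 86.85, 86.07 and 87.35 in treated mutants and at 21.52 to 62.46 in all others (interaction 1.74 ± 0.37, limma adjusted p 0.619).

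Other positive genes had smaller interactions with less scatter. Tmem38b, a channel of the endoplasmic reticulum membrane, was at 9.389, 9.191 and 9.823 in wild-type vehicle and at 7.904, 7.736, 7.542, 7.743 and 8.105 in wild-type TAK-418 libraries, with no overlap, as in 2.4% of all genes. In mutants it was at 8.032, 8.186 and 8.367 with vehicle and 8.752, 8.331 and 9.561 with TAK-418 (interaction 0.36 ± 0.08, limma adjusted p 0.642). Atf4, the transcription factor of the integrated stress response, was at 92.38, 95.31 and 88.45 in wild-type vehicle and 74.69 to 85.42 in wild-type TAK-418 libraries, again without overlap. Mutants stood at 80.96, 84.1 and 80.22 with vehicle and 81.78, 90.79 and 88.04 with TAK-418 (interaction 0.31 ± 0.07, limma adjusted p 0.797), and the authors' deposited tables gave 0.22. Rpap3, a co-chaperone in the assembly of RNA polymerase II, was at 11.99, 11.88 and 11.31 in mutant vehicle and 13.33, 14.34 and 13.24 in mutant TAK-418 libraries, and its interaction of 0.32 ± 0.09 stood beside 0.31 in the authors' deposited tables. The remaining positive genes were Cdadc1 (0.69), Cc2d2a (0.41), Mir22hg (0.55) and Tbce (0.74), which encode a cytidine deaminase, a protein of the ciliary transition zone, the host RNA of miR-22 and a tubulin-folding cofactor.

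Tspan7, an X-linked tetraspanin of neurons, had the most negative moderated statistic, although others of the 10 had larger differences. It was at 665.5, 707.8 and 713.6 in mutant vehicle and 541.8, 562.5 and 558.5 in mutant TAK-418 libraries, which did not overlap. In wild types it was at 684.4, 672.2 and 637.0 with vehicle and 690.8 to 736.1 with TAK-418 (interaction -0.41 ± 0.06, limma adjusted p 0.193). The authors' deposited tables gave -0.03 for this gene. Sez6l, a membrane protein of neurons, was at 67.33, 72.12 and 65.91 in wild-type vehicle and 78.37 to 87.64 in wild-type TAK-418 libraries, and at 77.87, 75.46 and 76.62 in mutant vehicle and 68.86, 73.8 and 69.3 in mutant TAK-418 libraries (interaction -0.39 ± 0.07, limma adjusted p 0.436). Counted by its highest transcript alone, Sez6l had an interaction of 0.24.

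For Aptx and Prdm8 the wild-type vehicle group stood apart from the other 3, and for Plch2 the wild-type TAK-418 group did. Aptx, a DNA end repair enzyme, was at 8.813, 6.734 and 9.389 there and at 12.88 to 15.36 in the other 11 libraries (interaction -0.69 ± 0.14, limma adjusted p 0.619), whereas the authors' deposited tables gave 0.06. Prdm8, a transcriptional regulator of neurons, was at 42.81, 38.39 and 41.43 in wild-type vehicle, 47.72 to 55.0 in wild-type TAK-418, 47.99 to 50.68 in mutant vehicle and 47.97 to 50.44 in mutant TAK-418 libraries. Its interaction of -0.34 ± 0.08 (limma adjusted p 0.797) stood beside -0.33 in the authors' deposited tables. Plch2, a phospholipase C, was at 32.05, 37.04 and 38.65 in wild-type vehicle and 43.81 to 48.19 in wild-type TAK-418 libraries, with 34.87 to 40.24 in the 6 mutant libraries (interaction -0.40 ± 0.09; -0.22 in the authors' deposited tables). Traf7 (-1.21), Fntb (-1.03), Ylpm1 (-0.46), Pitpnm2 (-0.43) and Lca5 (-0.63) completed the 10. Of these 20 genes 11 had 1 matched locus in the authors' deposited tables, 7 with the same sign and 5 of them with at least 50% of the size. Over all matched loci 69.9% had the same sign, so the share among these 11 genes was no higher than over all. Of the 464 matched genes with an unadjusted limma interaction p under 0.05, 411 had the same sign (88.6%). Both sets of values come from the same libraries. The deposited and fitted interactions had a Pearson r of 0.261 across 10300 loci, which are not independent.

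**Figure D2:**
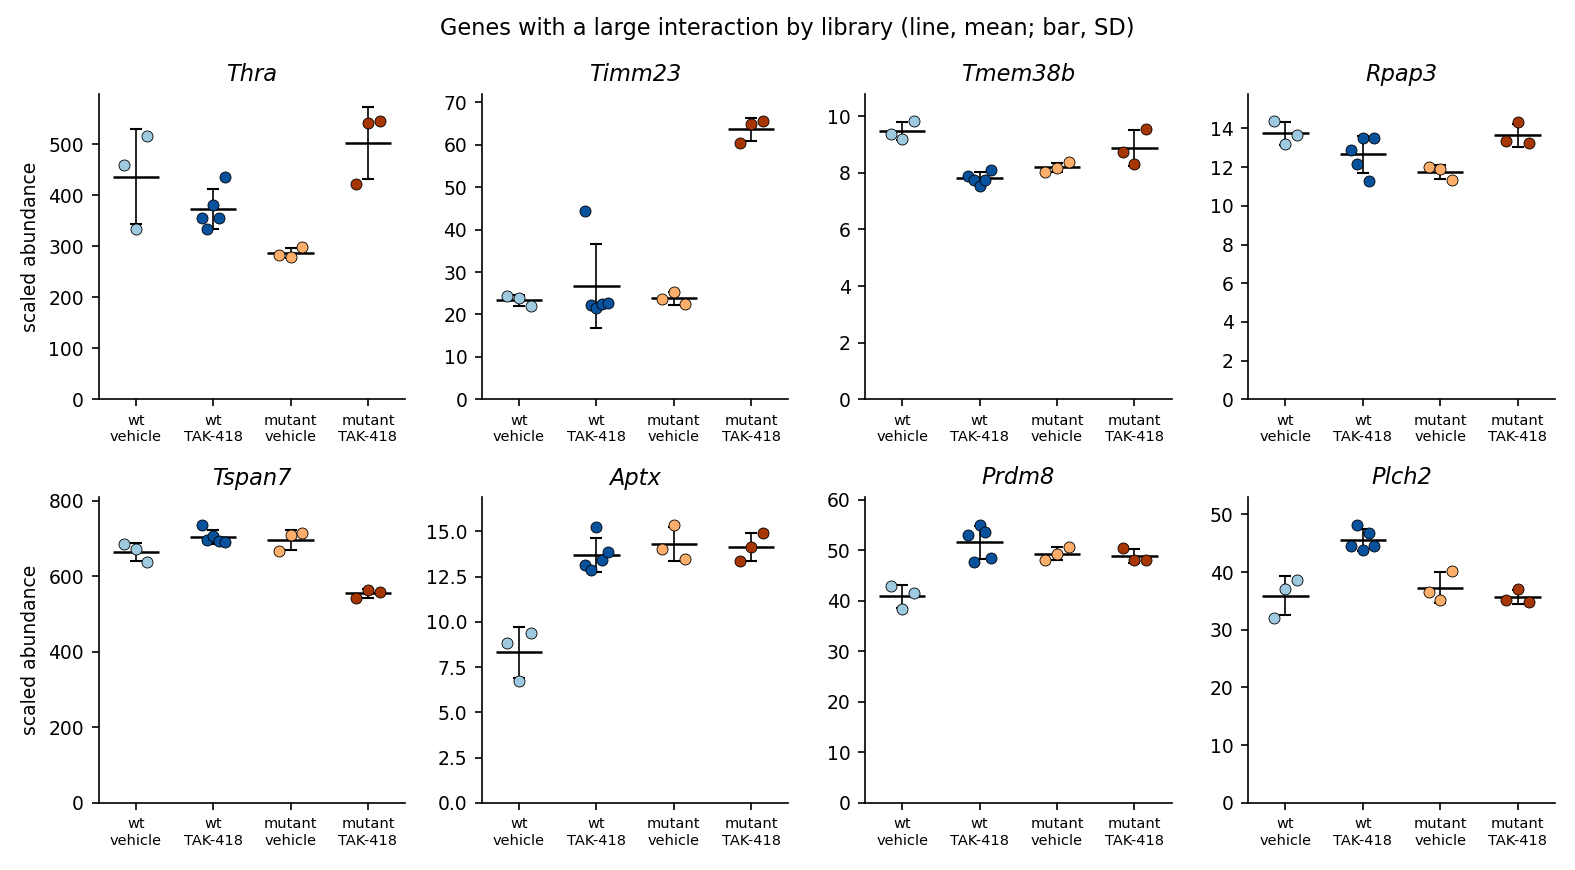
Scaled abundance (y axis, linear from 0) of 8 genes with a large interaction in each library, by group on the x axis, with the mean (line) and SD (bar). Timm23 and Tspan7 stand apart in mutant TAK-418 libraries, Aptx and Prdm8 in wild-type vehicle libraries, and Plch2 in wild-type TAK-418 libraries.

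Among the lists of genes with a shared function or cell type that had at least 7 members tested, the immediate early genes had the median farthest from 0. These genes, most of them transcription factors, are transcribed within minutes of neuronal activity, without need of new protein. Their control runs in part through CREB, which binds the cyclic AMP response element (CRE), and the sequences before the start of 4 members are shown here because the values of this list leaned one way and the members are known for such elements. They are the 250 bases before the annotated start in RefSeq on GRCm38.p6, 5′ to 3′ on the gene's strand: Fos at chr12:85473640-85473889 (plus), Nr4a1 at chr15:101266596-101266845 (plus), Dusp1 at chr17:26508473-26508722 (minus) and Npas4 at chr19:4989972-4990221 (minus). Capitals mark the full CRE TGACGTCA and its shorter form TGACG on either strand, which reads CGTCA on the other. Nr4a1 has a further annotated start upstream of the one shown.
Fos: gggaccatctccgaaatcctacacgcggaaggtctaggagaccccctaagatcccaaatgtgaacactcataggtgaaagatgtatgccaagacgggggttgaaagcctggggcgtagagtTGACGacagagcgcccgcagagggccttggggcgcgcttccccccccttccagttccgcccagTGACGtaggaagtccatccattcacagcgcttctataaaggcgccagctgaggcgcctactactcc
Nr4a1: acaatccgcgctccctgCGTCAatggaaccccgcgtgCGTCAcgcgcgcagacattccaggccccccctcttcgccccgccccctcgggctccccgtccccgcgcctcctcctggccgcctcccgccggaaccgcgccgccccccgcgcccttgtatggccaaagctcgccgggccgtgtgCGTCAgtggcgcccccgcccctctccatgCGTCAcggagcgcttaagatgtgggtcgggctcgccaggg
Dusp1: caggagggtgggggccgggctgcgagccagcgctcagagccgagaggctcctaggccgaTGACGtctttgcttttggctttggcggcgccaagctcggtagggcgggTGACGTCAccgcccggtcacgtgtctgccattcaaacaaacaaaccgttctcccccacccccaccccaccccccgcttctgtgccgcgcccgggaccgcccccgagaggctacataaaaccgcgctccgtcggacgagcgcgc
Npas4: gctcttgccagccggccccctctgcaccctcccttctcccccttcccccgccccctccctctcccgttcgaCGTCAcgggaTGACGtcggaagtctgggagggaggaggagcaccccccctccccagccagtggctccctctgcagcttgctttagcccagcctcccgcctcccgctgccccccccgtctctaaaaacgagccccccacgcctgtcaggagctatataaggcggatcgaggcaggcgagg

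A full CRE was found in 2 of the 16 immediate early genes with a window (Btg2 and Dusp1) and in 1.55% of 32851 RefSeq promoter windows. The form TGACG, which each full CRE holds on both strands, was found in 12 of the 16 and in 17.8% of all windows. A CArG box, the site of serum response factor, was found in 1 of the 16 and in 1.47% of all windows. A gene was counted when any of its windows held the motif, and some genes have several, whereas the share over all windows counts single windows. The shares are therefore not like for like. The list has 21 members, and those without a window include Arc and Egr1. Sites farther than 250 bases before the start were not looked for, so a motif not found here may lie outside the window. These are matches of letters and not measured sites.

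The interaction was positive in 18 of the 20 immediate early genes tested, 5 with an unadjusted p under 0.05 and a positive value and 0 with a negative one. The median was 0.29 against 0.0046 over all genes, and none passed the adjusted threshold (0 of 20 by limma). The median drug effect was -0.23 in wild types and 0.09 in mutants. In wild types 6 members had an unadjusted p under 0.05, all lower with TAK-418 (3.28% of all genes), and in mutants 1, which was higher (2.5%). The authors' deposited tables gave a positive difference for 15 of 17 members with a median of 0.30.

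Nr4a1, an orphan nuclear receptor, was at 24.99, 32.21 and 33.42 in wild-type vehicle and at 19.17, 22.21, 19.33, 25 and 24 in wild-type TAK-418 libraries. In mutants it was at 23.46, 20.09 and 24.13 with vehicle and 23.25, 26.1 and 22.55 with TAK-418. The high values were those of 2 wild-type vehicle libraries, and the third touched the treated range (interaction 0.53 ± 0.17, unadjusted p 0.00949, limma adjusted p 0.977). Fos, a subunit of the AP-1 transcription factor, was at 5.227, 11.5 and 9.221 in wild-type vehicle, 4.717 to 6.148 in wild-type TAK-418, 3.475, 3.297 and 6.704 in mutant vehicle and 6.302, 4.944 and 6.037 in mutant TAK-418 libraries (interaction 0.93 ± 0.34, unadjusted p 0.0196, limma adjusted p 0.977). Arc, a regulator of synaptic AMPA receptors, followed the same order, at 36.47, 53.0 and 52.06 in wild-type vehicle, 31.1 to 37.75 in wild-type TAK-418, 33.49, 30.22 and 41.01 in mutant vehicle and 35.05, 36.63 and 36.93 in mutant TAK-418 libraries (interaction 0.45 ± 0.19).

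Egr1, a zinc finger transcription factor, was at 42.86, 63.49 and 63.93 in wild-type vehicle and 39.61 to 43.1 in wild-type TAK-418 libraries, and at 34.72 to 51.17 in the 6 mutant libraries (interaction 0.51 ± 0.21). Npas4, a transcription factor specific to neuronal activity, was at 4.681, 4.661 and 5.224 in wild-type vehicle and 2.557 to 3.479 in wild-type TAK-418 libraries, with no overlap, and at 2.527 to 4.735 in mutants (interaction 0.47 ± 0.23). Dusp1, a phosphatase of MAP kinases, differed in the mutants instead. It was at 6.358, 6.362 and 6.513 in mutant vehicle and 11.96, 7.305 and 6.991 in mutant TAK-418 libraries, with no overlap as in 4.53% of all genes (interaction 0.51 ± 0.21). Its relative Dusp6 was at 28.13 to 29.57 in wild-type vehicle and 22.61 to 26.22 in wild-type TAK-418 libraries (interaction 0.21 ± 0.10). The members with a negative interaction were Jun (-0.74) and Ier5 (-1.77), neither listed in all libraries. Only 16 of the 20 members were listed in all libraries, so some positive members share this limit. The largest positive value of the list was 4.37. Jun alternated between values under 2 and values near 50 within every group.

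By library, the median deviation of the immediate early genes from their mean was -0.04, 0.30 and 0.26 in wild-type vehicle, -0.10 to -0.003 in wild-type TAK-418, -0.19, -0.27 and 0.07 in mutant vehicle and 0.04, -0.03 and -0.09 in mutant TAK-418 libraries. The vehicle libraries of both genotypes spread more widely than the treated ones. Myelin genes moved with them in the vehicle libraries, at -0.20, 0.37 and 0.21 in wild types and -0.10, -0.11 and 0.01 in mutants. With TAK-418 they were at -0.07 to 0.11 in wild types and -0.02, -0.23 and 0.02 in mutants, and their part in the immediate early values was not tested. Over all settings the immediate early median was 0.16 to 0.46, lowest with 9 added before the logarithm, which shrinks low genes. Leaving out 1 library at a time kept it at 0.27 to 0.46 with 17 to 19 members positive, but the members with an unadjusted p under 0.05 and a positive value then numbered 1 without wild-type vehicle replicate 2, 2 without mutant vehicle replicate 1 or mutant vehicle replicate 2, and 3 without wild-type vehicle replicate 3. Without the 4 libraries with few single-exon transcripts the median was 0.32, with 2 such members.

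**Figure D3:**
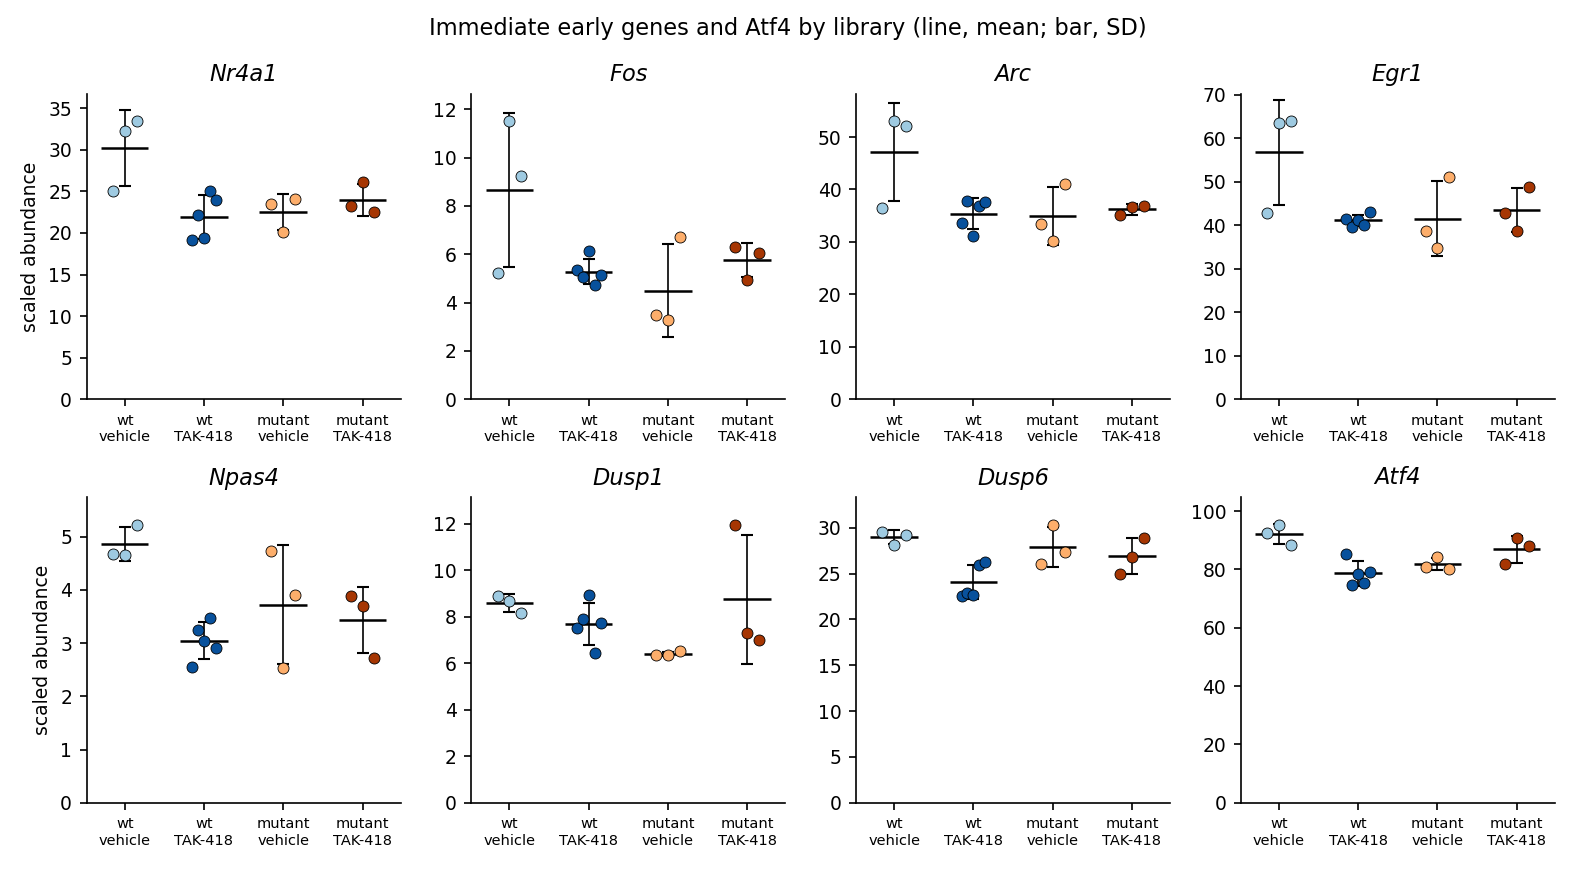
Scaled abundance (y axis, linear from 0) of 7 immediate early genes and Atf4 in each library, by group on the x axis, with the mean (line) and SD (bar). For Nr4a1, Fos, Arc and Egr1, 2 of the 3 wild-type vehicle libraries lie above the other libraries. Dusp1 has its lowest group mean in mutant vehicle libraries.

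The heat shock and unfolded protein response list leaned to the negative side. There 6 of 21 members were positive (28.6%, against 51.2% of all genes), with 1 positive and 3 negative at an unadjusted p under 0.05 and a median of -0.04. The positive member was Atf4, and the negative ones were chaperones and disulfide isomerases of the endoplasmic reticulum. Pdia4 was at 32.47, 32.8 and 33.41 in mutant vehicle and 27.01, 26.31 and 29.7 in mutant TAK-418 libraries, without overlap (3.65% of all genes), and at 28.82 to 33.69 across wild types (interaction -0.24 ± 0.08). Calr (-0.19 ± 0.08) and Pdia6 (-0.17 ± 0.07) likewise were lower in every treated mutant than in every vehicle mutant, and the authors' deposited tables gave -0.18 and -0.17 for them. In this list 6 of 21 members had an unadjusted p under 0.05 for the drug in mutants, all lower, as did 1.89% of all genes. The glucocorticoid (16 tested, median -0.04), circadian clock (16, 0.06), growth factor (27, -0.11, and 0.01 without wild-type vehicle replicate 2) and interferon (18, 0.04) lists had 0 to 1 member in each direction at an unadjusted p under 0.05.

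Genes of newborn granule neurons, the immature cells of the dentate gyrus, had mostly negative interactions. Of 14 tested, 5 were positive, 3 had an unadjusted p under 0.05 and a negative value and 0 a positive one, and the median was -0.14 (drug effect 0.13 in wild types and 0.05 in mutants). Without wild-type vehicle replicate 1 the median was -0.08, with 1 such member. Igfbpl1, a secreted protein of immature neurons, was at 7.327, 5.875 and 10.34 in wild-type vehicle, 10.29 to 13.54 in wild-type TAK-418, 9.643 to 10.68 in mutant vehicle and 9.334 to 11.33 in mutant TAK-418 libraries (interaction -0.53 ± 0.21, limma adjusted p 0.977). Dpysl3, a cytoskeletal protein of growing axons, was at 16.63, 18.73 and 18.88 in wild-type vehicle and 20.54 to 26.87 in wild-type TAK-418 libraries, with no overlap as in 3.94% of all genes. In mutants it was at 15.7, 17.47 and 20.02 with vehicle and 19.43, 19.77 and 17.89 with TAK-418 (interaction -0.33 ± 0.14). Dcx (-0.22) and Neurod1 (-0.15) had the same sign. The members named in this paragraph all had negative values. The 5 positive members reached 1.54, larger in size than the lowest value of the list, -0.79. Of 8 members matched in the authors' deposited tables, 3 were positive, with a median of -0.06. Eomes, a factor of intermediate progenitors, had -0.79 ± 0.27 at levels of 0.8013 to 2.485, where 1 assembled transcript more or less weighs heavily, and the authors' deposited tables gave 0.03. In a bulk sample fewer cells of a type and less RNA per cell cannot be told apart. Stem and dividing cell genes (23 tested, median 0.02), mature granule neurons (11, -0.11), the CA1 to CA3 fields (16, -0.04) and GABAergic interneurons (24, 0.02) had at most 1 member at an unadjusted p under 0.05.

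Neuropeptide precursors leaned the other way, with 12 of 17 positive and a median of 0.13 (authors' deposited tables, 0.14). The median was 0.05 without mutant TAK-418 replicate 3 and 0.23 without mutant TAK-418 replicate 1, and by library only mutant TAK-418 replicates 2 and 3 stood up, at 0.23 and 0.20 against -0.11 to 0.01 in the others. Without the 4 libraries with few single-exon transcripts it was 0.02. Tac1, the precursor of substance P, was at 8.551, 8.343 and 9.254 in mutant vehicle and 10.52, 14.1 and 12.36 in mutant TAK-418 libraries, without overlap, and at 9.344 to 11.86 across wild types (interaction 0.47 ± 0.15, unadjusted p 0.0077, limma adjusted p 0.977). Npy, a peptide of interneurons, had a negative value, at 53.86, 76.8 and 69.65 in wild-type vehicle, 75.8 to 91.39 in wild-type TAK-418 and 76.12 to 93.0 in mutant libraries (-0.38 ± 0.16). Trh had the largest value of the list, 1.76 ± 0.75, but it was listed in 6 libraries only. It was at 6.809 in wild-type vehicle replicate 1, and its interaction was 0.92 without that library. Without wild-type vehicle replicate 2 it was 2.47, and the authors' deposited tables gave 4.68.

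In the fits to the 14 libraries synaptic genes did not lean one way as a class, and members at an unadjusted p under 0.05 lay on both sides. The positive ones included Camk2d (0.31), Cacng3 (0.17), Slc17a6 (0.63) and Cacna2d4 (0.77). The authors' deposited tables gave 0.36 for Camk2d but -0.26 for Cacna2d4. On the negative side, Homer3, Dlg4, Grik5, Syn1 and Cacnb3 were each higher in every treated wild type than in every vehicle wild type, while their mutant groups overlapped. Such a separation in wild types was found in 3.94% of all genes, and a choice by small interaction p favours it. Dlg4, which encodes the postsynaptic scaffold PSD-95, was at 284.1, 275.7 and 288.8 in wild-type vehicle and 306.1, 319.7, 313.4, 314.4 and 313.6 in wild-type TAK-418 libraries, and at 280.2 to 304.7 across mutants (interaction -0.15 ± 0.05, unadjusted p 0.0143, limma adjusted p 0.977). Syn1, a synaptic vesicle phosphoprotein, was at 173.2 to 192.3 in wild-type vehicle and 192.8 to 223.5 in wild-type TAK-418 libraries, and at 172.4 to 195.9 across mutants (-0.24 ± 0.08). Homer3, a scaffold of metabotropic glutamate receptors, was at 20.31 to 23.81 in wild-type vehicle and 26.92 to 39.0 in wild-type TAK-418 libraries, with 24.6 to 30.56 in mutants (-0.58 ± 0.18). Grik5, a kainate receptor subunit, had -0.22 ± 0.07, Cacnb3, a calcium channel subunit, -0.26 ± 0.09, and Grin2c, an NMDA receptor subunit, -0.34 ± 0.13. They are among the members of their lists with the smallest p, and no list or test stands behind their grouping.

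Set against those genes, their lists lay on both sides of all genes, of which 51.2% were positive with a median of 0.0046. Scaffolds and CaMKII had 12 of 23 members positive (median 0.01), ionotropic glutamate receptors 10 of 27 (-0.03), sodium and calcium channels 16 of 35 (-0.04), vesicle release genes 15 of 33 (-0.02) and potassium channels 44 of 79 (0.03). Metabotropic glutamate receptors were positive in 2 of 7 (-0.13), and monoamine and acetylcholine receptors in 23 of 35 (0.08). GABA receptors were positive in 9 of 14 (0.09). Of the 79 potassium channel genes, 0 had a positive and 4 a negative value at an unadjusted p under 0.05 (2.14% and 2.3% of all genes). The authors' deposited tables leaned negative for several of these lists. They gave 4 of 18 positive for scaffolds and CaMKII (median -0.09) and 4 of 15 for ionotropic receptors (-0.07). Sodium and calcium channels had 5 of 21 there (-0.07), metabotropic receptors 0 of 4 (-0.04) and vesicle release genes 12 of 28 (-0.03). Potassium channels went the other way, with 31 of 48 (0.03). The scaffold median kept its sign in 13 of 31 settings and fell as low as -0.15. Slc17a6, a vesicular glutamate transporter, had 0.63 ± 0.25 at levels of 1.61 to 4.09, and 0.93 in the authors' deposited tables.

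Axon guidance genes had mostly negative interactions. Of 70 tested 22 were positive (31.4%, against 51.2% of all genes), 4 had an unadjusted p under 0.05 and a negative value (2.3% of all genes) and 0 a positive one. The median was -0.09 both here and in the authors' deposited tables, and it was -0.05 without mutant vehicle replicate 3 and -0.15 without wild-type vehicle replicate 3. Slit1, a secreted repellent, was at 63.57, 55.31 and 55.65 in wild-type vehicle and 65.13 to 73.48 in wild-type TAK-418 libraries, and at 63.8 to 72.16 across mutants (interaction -0.28 ± 0.09, unadjusted p 0.00673, limma adjusted p 0.977). Nrp2, a semaphorin receptor (-0.24 ± 0.09), and Sema4f, a semaphorin (-0.18 ± 0.06), had the same order of groups. Without the 4 libraries with few single-exon transcripts no axon guidance gene had an unadjusted p under 0.05 and a negative value, while the list's median was -0.10.

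**Figure D4:**
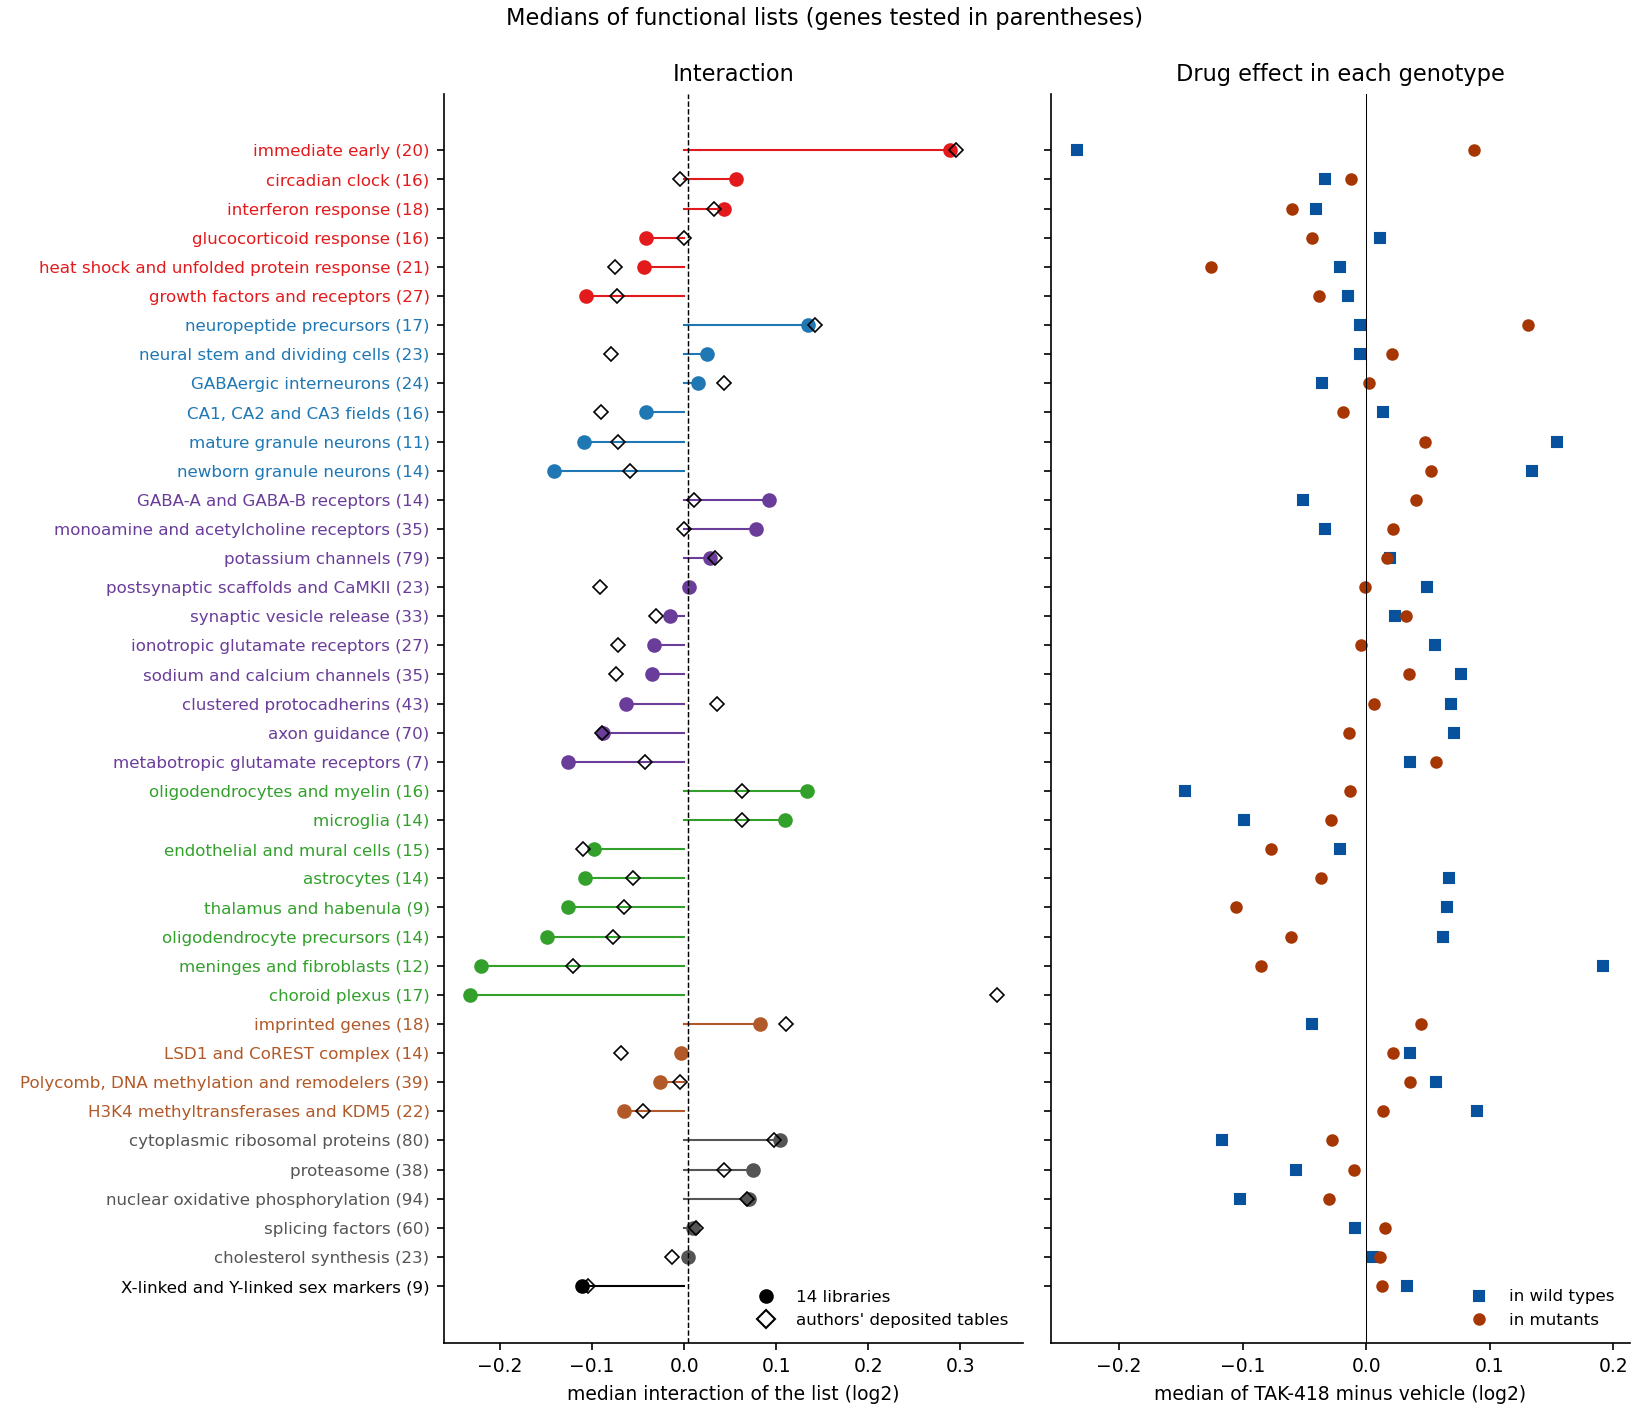
Left, median interaction (log2, x axis) of each list with at least 7 genes tested, from the 14 libraries (filled) and from the authors' deposited tables (open diamonds), with a dashed line at the median of all genes. Right, median drug effect in wild types (squares) and in mutants (circles), with choroid plexus left out because its values of -1.02 and -1.22 lie off the scale. Immediate early genes are farthest to the right, at 0.29.

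Marker lists of other cell types gave the following values, and their part in the results above was not tested. Choroid plexus genes varied more than any other list. Their summed scaled abundance was 7319 in wild-type vehicle replicate 3, 5936 in mutant vehicle replicate 1, 1120 in mutant vehicle replicate 3 and 745 in mutant TAK-418 replicate 1, and 92.0 to 152 in the other 10 libraries. Ttr, the transthyretin gene that defines this tissue, reached 6369 and 4906 in the first 2 of these. The list's median interaction was -0.23 with 2 of 17 members positive and 0 at an unadjusted p under 0.05, but it ranged from -1.22 to 0.74 when 1 library at a time was left out and was 0.34 in the authors' deposited tables. Without both of those libraries the immediate early median was 0.34, with 2 members at an unadjusted p under 0.05, the newborn neuron median -0.20 and the axon guidance median -0.13.

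Astrocyte markers were positive in 2 of 14 (median -0.11), oligodendrocyte precursors in 2 of 14 (-0.15), endothelial and mural cells in 3 of 15 (-0.10) and meninges in 1 of 12 (-0.22). Myelin genes were positive in 11 of 16 (0.13), with a median of 0.03 without wild-type TAK-418 replicate 1 and 0.30 without wild-type vehicle replicate 1. Microglial genes were positive in 9 of 14 (0.11), with 0.05 without wild-type vehicle replicate 2 and 0.17 without wild-type vehicle replicate 3. The meningeal list held Col1a2, a fibrillar collagen, at 3.712, 4.488 and 6.445 in wild-type vehicle and 6.678, 6.191 and 6.598 in mutant vehicle libraries, with 4.981 to 6.451 in treated libraries (-0.46 ± 0.19; -0.47 in the authors' deposited tables), and Dcn, a proteoglycan, as its 1 positive member (0.38 ± 0.17). Cldn5, the tight junction gene of brain vessels, had 2.70 ± 1.16, but within the mutant vehicle and wild-type TAK-418 groups it alternated between 0.487 to 1.045 and 7.546 to 10.47, and it was at 0.08 in the authors' deposited tables. The summed levels of the astrocyte list were 1533 to 1710 in wild-type vehicle, 1621 to 1682 in mutant vehicle, 1241 to 1751 in wild-type TAK-418 and 1459 to 1714 in mutant TAK-418 libraries. Blood genes (5 tested, median -0.49) had 1 positive member, and thalamic genes 3 of 9 (-0.13).

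Among genes of the histone methylation and remodelling machinery, the LSD1 and CoREST list had a median near that of all genes. The list of H3K4 methyltransferases, partners and KDM5 genes leaned to the negative side. In the LSD1 and CoREST list 7 of 14 were positive, with a median of -0.004 and 0 members at an unadjusted p under 0.05. Its widest drug effect in wild types was that of Rcor2, a CoREST paralogue, at 7.983, 7.56 and 6.636 with vehicle and 8.974 to 10.59 with TAK-418, but its interaction was -0.18 ± 0.13 (limma adjusted p 0.977). Among 22 H3K4 methyltransferase, partner and KDM5 genes 7 were positive (31.8%, against 51.2% of all genes, median -0.07). None had an unadjusted p under 0.05, with Kmt2b at -0.31 ± 0.23. The median was -0.02 without wild-type vehicle replicate 1, and the authors' deposited tables gave 3 of 17 positive with a median of -0.04. Polycomb, DNA methylation and remodeler genes were positive in 16 of 39 (-0.03). Their 1 member at an unadjusted p under 0.05 was Arid1a, a subunit of the SWI/SNF remodeler, at 19.58, 20.76 and 23.02 in wild-type vehicle, 24.47 to 34.02 in wild-type TAK-418 and 21.19 to 26.08 in mutant libraries (-0.47 ± 0.15). Of 67 clustered histone genes 6 were tested, 4 of them positive (0.40, and -0.12 without wild-type vehicle replicate 2). Imprinted genes were positive in 14 of 18 (0.08; 0.11 in the authors' deposited tables). Dlk1, a Notch ligand relative, was at 1.786, 1.614 and 1.999 in mutant vehicle and 3.932, 3.29 and 2.327 in mutant TAK-418 libraries, without overlap (0.48 ± 0.20; 0.60 in the authors' deposited tables).

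Genes of the ribosome and of mitochondrial respiration had small positive interactions in most members. Cytoplasmic ribosomal proteins were positive in 67 of 80 (83.8%, against 51.2% of all genes) with a median of 0.10, and in 53 of 54 in the authors' deposited tables with a median of 0.10. Only 1 member had an unadjusted p under 0.05, Rps23, at 336.3 to 356.1 in wild-type vehicle, 283.1 to 341.7 in wild-type TAK-418, 314.1 to 374.3 in mutant vehicle and 345.6 to 377.0 in mutant TAK-418 libraries (0.25 ± 0.11). The median drug effect was -0.12 in wild types and -0.03 in mutants. The list's median was 0.03 without mutant vehicle replicate 3 and 0.17 without wild-type vehicle replicate 3. Nuclear oxidative phosphorylation genes were positive in 65 of 94 (0.07), proteasome genes in 29 of 38 (0.08), splicing factors in 32 of 60 (0.01) and cholesterol synthesis genes in 13 of 23 (0.005). Without mutant vehicle replicate 3 the oxidative phosphorylation median was 0.02 and the proteasome median 0.0086. Ndufaf2, an assembly factor of complex I, had 0.28 ± 0.10 and 0.34 in the authors' deposited tables, and Uqcrb, a subunit of complex III, -1.26 ± 0.52 against 0.07 in those tables. Psmb3, a proteasome subunit, had 0.31 ± 0.16.

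Gene length moved with these values. Over 10 bins of annotated exon length the median interaction went from 0.04 in the shortest (median 1085 bases) to -0.02 in the longest (median 12198 bases), and the positive share from 57.6% to 45.7%. The drug effect in wild types went from -0.04 to 0.02 over the same bins, while that in mutants stayed within 0.01 of 0. Ribosomal protein genes had a median exon length of 1805 bases and axon guidance genes of 6851 bases. Taken relative to genes of like length, the medians were 0.08 for ribosomal proteins, 0.04 for oxidative phosphorylation, 0.27 for immediate early genes, -0.16 for newborn granule neurons and -0.08 for axon guidance. By library, the genes of the shortest bin deviated by -0.07 to 0.04, lowest in mutant vehicle replicate 3, wild-type TAK-418 replicate 4 and wild-type vehicle replicate 3.

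**Figure D5:**
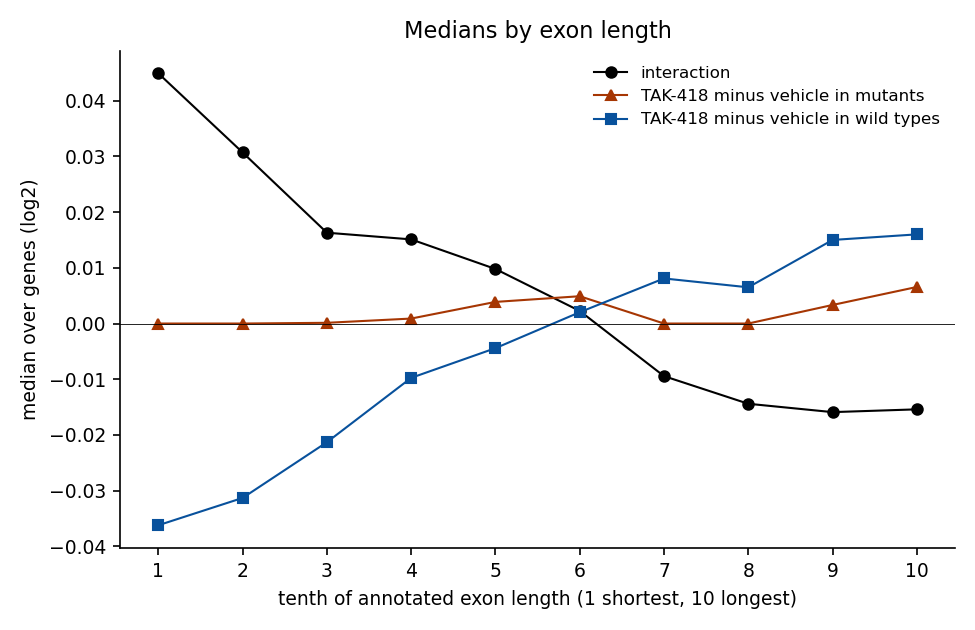
Median log2 value over genes (y axis) in 10 bins of annotated exon length (x axis, shortest to longest) for the interaction and for the drug effect in each genotype. The interaction passes from 0.04 to -0.02 and the drug effect in wild types from -0.04 to 0.02, and the drug effect in mutants stays near 0.

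Of the 42 lists with a value, 21 kept the sign of their median in all of up to 31 alternative settings, 10 positive and 11 negative, and all 21 had the same sign in the authors' deposited tables. The positive ones were immediate early genes, neuropeptides, GABA receptors, monoamine and acetylcholine receptors, myelin, microglia, imprinted, ribosomal, respiratory and proteasome genes. The negative ones were newborn and mature granule neurons, ionotropic and metabotropic glutamate receptors, axon guidance, astrocytes, oligodendrocyte precursors, endothelial and meningeal cells, H3K4 enzymes and the unfolded protein response. Some of these signs rest on values near 0. The deposited median was 0.0003 for monoamine and acetylcholine receptors, with 12 of 24 positive, and 0.01 for GABA receptors. Over the settings the ionotropic receptor median came as near 0 as -8.5e-05. Most of the lists that did not keep their sign also had the same sign in the authors' deposited tables, which come from the same libraries. The settings share most libraries, so a kept sign says nothing of other mice.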

How the data were processed

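RNA of 14 hippocampus libraries was measured. Per the file headers, the authors assembled transcripts per library with CLASS 2.1.7. The submitters' processing notes name TopHat2 2.1.0, FastQC and mm10 without a role. Each deposited transcript has an abundance score, which behaves like FPKM, a reading from the values alone. The authors also deposited 2 tables of log2 fold changes of mutants over wild types within a treatment, per the file headers, with 1 value per group. Their difference is compared beside the fits and has no error.

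Transcripts were assigned to GENCODE M21 (GRCm38) by a shared intron, or for single exons by at least 50% overlap, and summed per gene. Median-of-ratios factors put the libraries on one scale, and log2(value + 0.9) of the 16568 of 18722 genes listed in at least 3 libraries was fitted with limma 3.58.1 in R 4.3.3 (4 group means, eBayes with trend, Benjamini-Hochberg adjustment). A fold on this scale understates changes of low genes. The script was tested on simulated data. Motifs and figures used Python 3.11.15, pandas 2.3.3 and matplotlib 3.10.9.

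The gene lists, the named genes and the comparison were chosen with earlier results of these data known. Named by rule were Kmt2d, Kdm1a, called genes, the 10 genes at each end of the moderated statistic listed in all libraries with a mean of at least 5 (clone and predicted-gene names left out), and the 2 members of each list with the smallest p, of which not all are used. Arc, Egr1, Npas4, Dusp1, Dusp6, Jun, Ier5, Dcx, Neurod1, Dpysl3, Trh, Calr, Pdia6, Sema4f, Nrp2, Ttr and Tlnrd1 were named after their values were seen. The mitochondrial genome list had no gene tested. Alternatives covered pseudocount, filter, scaling, transcript choice, variance model, Xist, and leaving out libraries.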

Additional observations from a re-analysis of the deposited data

Results flagged for a closer look

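In the 5 wild-type TAK-418 libraries, 82 values were examined for 1 library standing away from the other 4, which chance gives in about 1 of 20 cases. Wild-type TAK-418 replicate 1 stood apart with 48428 assembled transcripts against 33880 to 35896, and with a relative depth of 168 M fragments against 40.8 to 56.1 M. In the same library Timm23 was at 44.3 against 21.5 to 22.8, Psmb3 at 51.7 against 70.0 to 73.6, Ier5 was listed at 0 against 0.432 to 0.513, and the median deviation of choroid plexus genes was -0.555 against -0.649 to -0.631. Wild-type TAK-418 replicate 2 had 92% of its abundance on annotated genes against 94.7% to 95.5%. Fntb was at 8.28 in replicate 3 against 11.3 to 12.5, and Pcdhga7 at 9.32 in replicate 4 against 6.97 to 7.41.

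Pcdhb13 had an interaction of 1.59 on the log2(value + 0.9) scale, past the adjusted threshold. It was listed only in the 3 mutant TAK-418 libraries and entered the test only through them, so the value describes where it was listed and does not support a difference between genotypes.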

How the results depend on the processing

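No paired analysis was possible because the labels number no replicates: the numbers used here were given in accession order within a group and tie no library to one of another group. The interaction called 2 genes with no filter, 0 among genes listed in all libraries, 0 with multi-exon transcripts only, 3 with no trend, 3 with robust variances, 5 without both libraries high in choroid plexus genes, 2 with the single-exon set of the library as a covariate and 12 without the 4 libraries with few single-exon transcripts, the last 2 settings being chosen after seeing the data. The number of interaction genes at unadjusted p under 0.05 was 449 on abundances as deposited. For the drug in mutants the same settings gave 2 genes with either other pseudocount, 2 with no filter, 0 listed in all libraries, 0 multi-exon, 2 with no trend, 2 robust, 3 with library weights, 7 without both choroid plexus libraries, 2 with the covariate and 2 without the 4 libraries. For the drug in wild types they gave 4 with the pseudocount of 0.09, 0 with 9, 2 with no filter, 0 listed in all libraries, 0 as deposited, 0 with upper quartile scaling, 3 by highest transcript, 0 multi-exon, 2 with no trend, 0 robust, 2 with library weights, 0 with the Xist covariate, 0 with the single-exon covariate and 15 without the 4 libraries. Leaving out 1 library at a time gave 0 to 5 genes for the interaction, 639 to 911 at an unadjusted p under 0.05, 1 to 8 for the drug in mutants and 0 to 2 in wild types. The cause was not tested.

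The interaction of Kmt2d ranged from -0.18 to 0.12 and that of Kdm1a from -0.047 to 0.061 when 1 library was left out, and Kmt2d was at 0.14 without the 4 libraries with few single-exon transcripts. By the highest transcript alone Cc2d2a was at -0.40 and Sez6l at 0.24. With the single-exon covariate Jun was at 0.24 and Ttr at 0.078, and without 1 library Jun ranged from -2.42 to 0.78 and Ttr from -3.165 to 1.197. The other named genes kept their sign, but Camk2d, Cacng3 and Cacna2d4 were not followed across the settings. With 3 libraries in 3 of the groups, the median standard error of 0.15 limits what can be said of a single gene.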
